A study of Mus musculus with 12 samples.

Results

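The GIMAP genes (GTPases of the immunity-associated protein family) were followed in LN T cells of B6 and FlipFlop mice. The 8 members were taken by symbol, *Gimap1*, *Gimap3*, *Gimap4*, *Gimap5*, *Gimap6*, *Gimap7*, *Gimap8* and *Gimap9*, and all 8 are present among the 12809 genes of the table and among the 11595 genes that were tested. RNA was sequenced from electronically sorted CD4 and CD8 T cells in 12 libraries, 3 in each of 4 groups. B6 CD4 and B6 CD8 T cells came from C57BL/6 mice, labelled female and 10 weeks old. FlipFlop CD4 and FlipFlop CD8 T cells came from mice labelled female and 14 weeks old, so that by the labels age changed together with strain and the 2 cannot be told apart. The sources disagree here, since the study's methods give both sexes and an upper age under 14 weeks for all mice. In FlipFlop mice both copies of chromosome 6 carry altered *Cd8a* loci that encode CD4 protein and altered *Cd4* loci that encode CD8αβ.1 protein. The *Cd8a* alteration was made in a 129R1 embryonic stem cell line and the *Cd4* alteration in B6 embryonic stem cells. The labels do not say whether the replicates of a group came from separate mice, so p-values measure the spread between these libraries, which may be technical.

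GIMAP proteins are small GTP-binding proteins found mainly in lymphocytes, and most are held on intracellular membranes. They are best known from mice and rats that lack GIMAP5, in which peripheral T cells fail to survive, and GIMAP1 is likewise needed to maintain mature T and B cells. In the mouse the genes lie side by side, so a stretch of chromosome can be compared gene by gene.

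Values are CPM, in which reads are scaled to a common library size and corrected for library composition by TMM. Differences were fitted on log2(CPM + 0.5) with limma over all 12 libraries, and a gene was called at an adjusted p-value under 0.05 (Benjamini-Hochberg over all tested genes). B6 CD4 and FlipFlop CD8 T cells are the helper-lineage groups and B6 CD8 and FlipFlop CD4 T cells the cytotoxic-lineage groups. *Zbtb7b*, which encodes the helper-lineage factor ThPOK, was at 162 to 203 CPM in the helper-lineage libraries and at 1.16 to 2.79 CPM in the cytotoxic-lineage libraries. *Cd4* was at 961 to 1090.3 CPM in B6 CD4 and at 637 to 719 CPM in FlipFlop CD4 libraries, against at most 2.40 CPM in CD8 libraries of B6 and 43.6 CPM in those of FlipFlop mice. The CD8 libraries held 1471.5 to 1499.6 CPM of *Cd8a* in B6 and 138 to 159 CPM in FlipFlop mice, against at most 1.59 CPM in both CD4 groups. The lineage effect is the mean of the helper-lineage groups minus that of the cytotoxic-lineage groups, the coreceptor effect is CD4 minus CD8, and the strain effect is FlipFlop minus B6. In a sorted population a lower share of cells that express a gene and less RNA per cell cannot be told apart.

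The cluster runs over 124 kb of chromosome 6 (chr6:48647234-48770851, GRCm38), in the order *Gimap8*, *Gimap9*, *Gimap4*, *Gimap6*, *Gimap7*, *Gimap1*, *Gimap5* and *Gimap3*. *Gimap6* and *Gimap3* are on the minus strand and the other 6 are on the plus strand. The table holds 3 further genes between the ends of the cluster, namely *Gm28053*, which is annotated from the start of *Gimap7* into *Gimap5*, *Gimap1os*, a processed transcript on the strand opposite to *Gimap1*, and the lincRNA *4833403J16Rik* between *Gimap5* and *Gimap3*. The altered loci are on the same chromosome, with *Cd8a* starting 22.7 Mb and *Cd4* 76.2 Mb from the start of the cluster. Which parental strain the FlipFlop copy of the cluster came from was not tested.

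The upstream sequences of *Gimap5*, *Gimap1* and *Gimap3* are shown because the first moved opposite to the other 2, which are its nearest GIMAP neighbours on either side. They are the 250 bases before each gene's start in RefSeq (GRCm38.p6), on the gene's own strand, at chr6:48745947-48746196 (plus), chr6:48738797-48739046 (plus) and chr6:48770852-48771101 (minus). Capitals mark the letters GGAAGT, the core of sites for ETS factors, and TGTGGT, the core of sites for RUNX factors, on either strand (ACTTCC and ACCACA on the reverse strand). The motifs were chosen after these promoters had been seen, and the 2 do not overlap.
Gimap5: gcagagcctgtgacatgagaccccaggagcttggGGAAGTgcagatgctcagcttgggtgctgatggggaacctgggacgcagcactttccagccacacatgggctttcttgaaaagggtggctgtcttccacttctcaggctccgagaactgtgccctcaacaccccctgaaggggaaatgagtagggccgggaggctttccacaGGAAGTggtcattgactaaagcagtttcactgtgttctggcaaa
Gimap1: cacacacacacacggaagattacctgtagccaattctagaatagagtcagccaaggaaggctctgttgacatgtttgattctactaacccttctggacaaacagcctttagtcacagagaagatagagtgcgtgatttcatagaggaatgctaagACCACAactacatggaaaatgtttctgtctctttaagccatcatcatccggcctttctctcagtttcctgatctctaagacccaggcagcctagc
Gimap3: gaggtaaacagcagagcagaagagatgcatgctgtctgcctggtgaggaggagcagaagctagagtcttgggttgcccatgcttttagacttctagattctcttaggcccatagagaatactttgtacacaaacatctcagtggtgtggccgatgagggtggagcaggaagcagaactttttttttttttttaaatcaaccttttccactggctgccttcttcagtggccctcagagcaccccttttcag
The ETS letters were found 2 times before *Gimap5*, with first bases 216 and 44 bases before its start, and 1 time before *Gimap6*, 25 bases before its start. The RUNX letters were found 1 time each before *Gimap4*, *Gimap7* and *Gimap1*, starting 145, 79 and 95 bases before the start. Among 32851 RefSeq promoters of the same length, 19.7% held the ETS letters and 14.0% the RUNX letters. A match describes letters in the window and not a site that is bound.

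*Gimap5* was lower in helper-lineage than in cytotoxic-lineage T cells in both strains. Its product is a membrane GTPase of lysosomes that naive T cells need to survive. *Gimap5* (ENSMUSG00000043505.8, chr6:48746197-48754210) measured 66.2, 63.1 and 63.5 CPM in the B6 CD4 libraries, whereas the B6 CD8 libraries had 99.5, 92.6 and 99.5 CPM. In FlipFlop mice it measured 101, 90.5 and 102 CPM in CD4 and 69.3, 63.0 and 68.2 CPM in CD8 libraries. Every helper-lineage library was below every cytotoxic-lineage library, and the coreceptor that the cells carried did not order them. The lineage effect was -0.57 on the log2 scale (standard error 0.05, limma adjusted p = 1.0e-06), or 1.48-fold lower in helper-lineage T cells. In B6 mice CD4 minus CD8 was -0.59 (standard error 0.07, limma adjusted p = 3.2e-05), and in FlipFlop mice it was 0.54 (standard error 0.07, limma adjusted p = 5.1e-05). The coreceptor effect was -0.03 with a 95% interval from -0.13 to 0.08, and the strain effect was 0.03 with an interval from -0.07 to 0.13, so neither was detectable.

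*Gimap3* and *Gimap1*, which flank *Gimap5*, moved the other way. *Gimap3* is the closest relative of *Gimap5* in the mouse, and *Gimap1* encodes a GTPase of the Golgi. *Gimap3* (ENSMUSG00000039264.9, chr6:48764464-48770851) measured 882, 736 and 778 CPM in CD4 and 626, 580.1 and 611 CPM in CD8 libraries of B6 mice. In FlipFlop mice the CD4 libraries held 702, 645 and 676 and the CD8 libraries 793, 713 and 733 CPM. The 6 helper-lineage libraries were all above the 6 cytotoxic-lineage libraries. Its lineage effect was 0.27 (standard error 0.06, limma adjusted p = 0.0023). CD4 minus CD8 of *Gimap3* was 0.40 in B6 mice (standard error 0.08, limma adjusted p = 0.0029). In FlipFlop mice it was -0.14 (standard error 0.08, limma adjusted p = 0.21), which was not called. *Gimap1* (ENSMUSG00000090019.5, chr6:48739054-48743795) measured 284, 230.4 and 238 CPM in CD4 and 188, 181 and 187 CPM in CD8 libraries of B6 mice. FlipFlop CD4 libraries had 210.1, 201 and 202 CPM and FlipFlop CD8 libraries 235, 220.4 and 219.7 CPM. These groups did not overlap by lineage either, and the first B6 CD4 library was the highest for both genes. The lineage effect of *Gimap1* was 0.28 (standard error 0.05, limma adjusted p = 0.0011). Its CD4 minus CD8 difference was 0.43 in B6 mice (standard error 0.08, limma adjusted p = 0.0011). In FlipFlop mice it was -0.14 (standard error 0.08, limma adjusted p = 0.20), which was not called either. Per 100 CPM of *Gimap3*, the libraries held 7.51 to 8.57 CPM of *Gimap5* in B6 CD4, 15.9 to 16.3 in B6 CD8, 14.0 to 15.1 in FlipFlop CD4 and 8.75 to 9.31 in FlipFlop CD8 T cells. This ratio within a library does not depend on the scaling between libraries, and it was higher in each cytotoxic-lineage library than in each helper-lineage library.

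**Figure D1:**
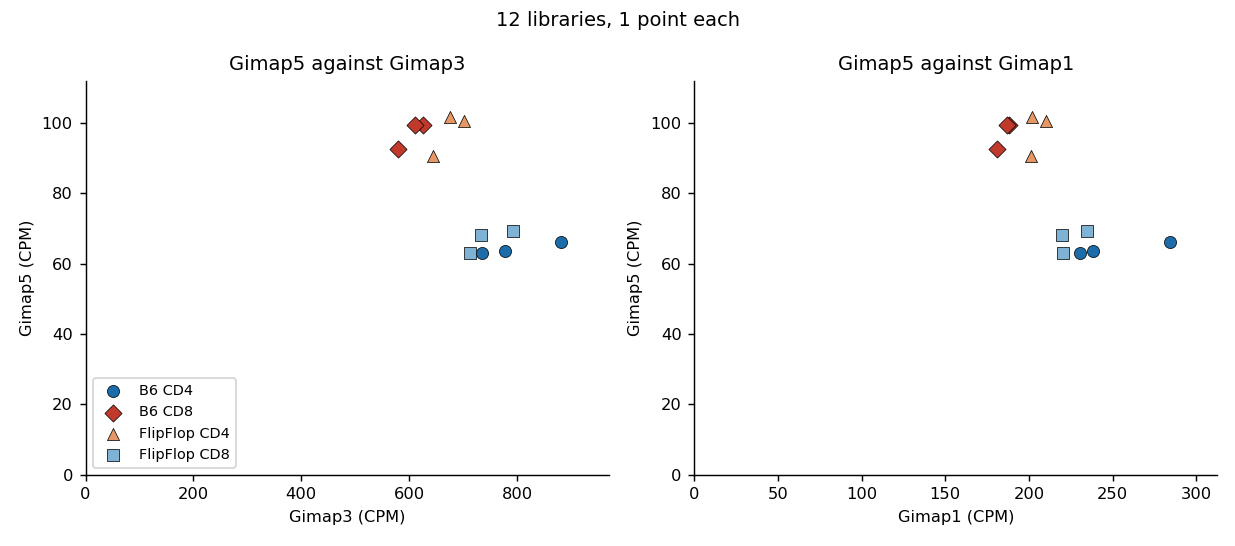
*Gimap5* (CPM, vertical axis) against *Gimap3* (left) and *Gimap1* (right; CPM, horizontal axes) in the 12 libraries, 1 point each, with color and shape giving the group. The 6 helper-lineage libraries lie lower right at 63.0 to 69.3 CPM of *Gimap5*, and the 6 cytotoxic-lineage libraries lie upper left at 90.5 to 102 CPM.

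*Gimap4*, *Gimap9* and *Gimap6* were also called higher for the helper lineage in the effect averaged over both strains. Within single strains *Gimap9* and *Gimap6* were called in B6 mice and not in FlipFlop mice, like *Gimap3* and *Gimap1*. *Gimap4* was called in neither strain. GIMAP4 hastens the death of T cells after a death signal, and GIMAP6 binds an ATG8 protein and takes part in autophagy. *Gimap4* (ENSMUSG00000054435.16, chr6:48684549-48692060) measured 736, 675 and 754 CPM in CD4 and 534, 558 and 661 CPM in CD8 libraries of B6 mice. The values in FlipFlop mice were 541, 457 and 451 CPM for CD4 and 684, 547 and 551 CPM for CD8 libraries. Within each strain the helper-lineage libraries were all higher, but the FlipFlop CD8 and B6 CD8 libraries overlapped. CD4 minus CD8 of *Gimap4* was 0.31 in B6 mice (standard error 0.11, limma adjusted p = 0.066). In FlipFlop mice it was -0.29 (standard error 0.11, limma adjusted p = 0.068). The lineage effect of *Gimap4* was 0.30 (standard error 0.08, limma adjusted p = 0.0095). *Gimap9* (ENSMUSG00000051124.6, chr6:48676129-48679114) measured 134, 114 and 129 CPM in the B6 CD4 libraries, whereas B6 CD8 had 90.3, 96.9 and 109.6 CPM. In FlipFlop mice it measured 96.9, 85.3 and 88.6 CPM in CD4 and 106, 90.9 and 99.3 CPM in CD8 libraries. Its B6 groups did not overlap and its FlipFlop groups did, although CD8 was higher in 3 of 3 FlipFlop pairs of the same replicate number. CD4 minus CD8 was 0.35 in B6 mice (standard error 0.09, limma adjusted p = 0.015) and -0.13 in FlipFlop mice (standard error 0.09, limma adjusted p = 0.33). Over all alternatives the adjusted p of *Gimap9* in B6 mice ran from 0.0018 to 0.067, so that call was not kept in every fit. The lineage effect of *Gimap9* was 0.24 (standard error 0.07, limma adjusted p = 0.012).

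*Gimap6* (ENSMUSG00000047867.11, chr6:48701582-48708225) measured 606, 541 and 546 CPM in CD4 and 437, 415 and 469 CPM in CD8 libraries of B6 mice. In FlipFlop mice the CD4 libraries held 521, 484 and 544 and the CD8 libraries 552, 469 and 563 CPM. The B6 CD8 libraries were the lowest, the highest of them at the level of the lowest FlipFlop CD8 library, the B6 CD4 and FlipFlop CD4 libraries overlapped, and so did both FlipFlop groups. CD4 minus CD8 was 0.36 in B6 mice (standard error 0.09, limma adjusted p = 0.0092) and -0.03 in FlipFlop mice (standard error 0.09, limma adjusted p = 0.84), so that most of the average came from the B6 groups. The lineage effect of *Gimap6* was 0.19 (standard error 0.06, limma adjusted p = 0.026), and the call was lost without B6 CD8 replicate 1 or 2, FlipFlop CD4 replicate 2, or FlipFlop CD8 replicate 1 or 3, where the effect was 0.17 to 0.19 (limma adjusted p from 0.050 to 0.070). Over all alternatives its adjusted p ran from 0.0013 to 0.070.

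*Gimap8* and *Gimap7* were not called in the lineage effect. *Gimap8*, which encodes the longest GIMAP protein, lies at the first end of the cluster (ENSMUSG00000064262.7, chr6:48647234-48660875). It measured 174, 192 and 213 CPM in CD4 and 194, 194 and 191 CPM in CD8 libraries of B6 mice. FlipFlop CD4 libraries had 196, 182 and 206 CPM and FlipFlop CD8 libraries 202, 192 and 212 CPM. All 4 groups overlapped, and the 95% interval of the lineage effect ran from -0.10 to 0.15 around 0.02. *Gimap7* (ENSMUSG00000043931.10, chr6:48718621-48724636) measured 96.7, 76.2 and 92.1 CPM in CD4 and 79.2, 83.2 and 97.0 CPM in CD8 libraries of B6 mice. The values in FlipFlop mice were 135, 88.8 and 105 CPM for CD4 and 139, 88.4 and 98.0 CPM for CD8 libraries. Replicate 1 was the highest in both FlipFlop groups, and the interval of the lineage effect, from -0.27 to 0.28, was the widest of the 8. An effect of the size seen for *Gimap3* lies just inside that interval.

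**Figure D2:**
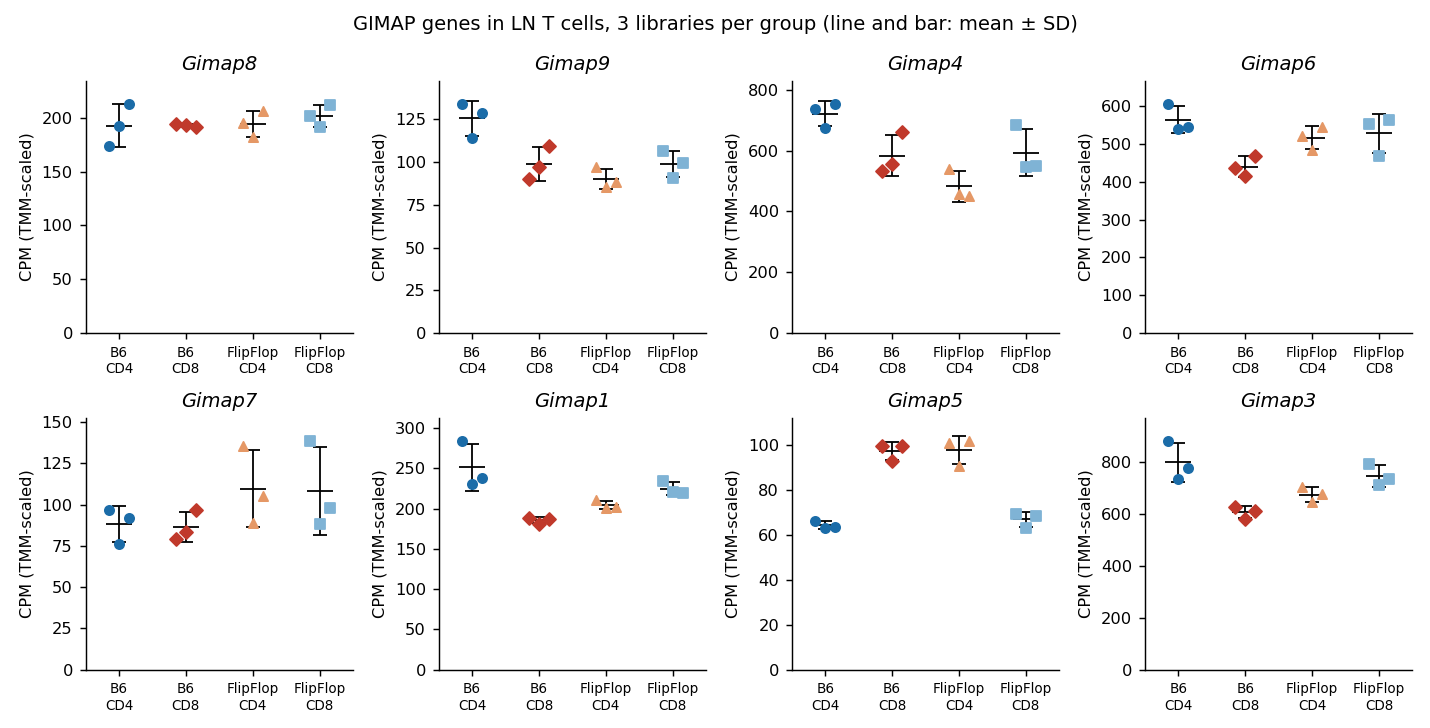
CPM (vertical axes, from 0) of each GIMAP gene in map order, with 1 point per library, 3 libraries per group, and the mean ± SD as a line with bars. *Gimap5* is at 63.0 to 69.3 CPM in the helper-lineage and 90.5 to 102 CPM in the cytotoxic-lineage libraries, *Gimap3* and *Gimap1* show the opposite order, and the 4 groups of *Gimap8* overlap.

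Of the 8 members, 6 were called in the lineage effect, 5 higher and 1 lower in helper-lineage T cells, while 39.3% of all tested genes were called. The members' median lineage effect was 0.22, and that of all tested genes was -0.03. All 6 called members kept their direction under median-of-ratios rescaling and without the TMM factor. Libraries of the 2 lineages, 6 against 6, did not overlap for 3 members (*Gimap5*, *Gimap3* and *Gimap1*) and for 16.9% of all tested genes. In B6 mice 5 members were called between CD4 and CD8 T cells, *Gimap9*, *Gimap6*, *Gimap1* and *Gimap3* higher and *Gimap5* lower in CD4, against 25.4% of all genes. The B6 libraries did not overlap for 6 members, *Gimap4* in addition to those 5, and for 37.8% of all genes. Between FlipFlop CD4 and CD8 T cells only *Gimap5* was called, against 31.3% of all genes. The FlipFlop libraries did not overlap for 4 members (*Gimap4*, *Gimap1*, *Gimap5* and *Gimap3*) and for 47.2% of all genes. With a replicate block *Gimap4* was called as well, higher in CD4 in B6 mice (0.31, standard error 0.07, limma adjusted p = 0.0086) and lower in CD4 in FlipFlop mice (-0.29, standard error 0.07, limma adjusted p = 0.0090). The FlipFlop count of called members was thus 2 with the block, and it was 5 without the TMM factor. Members of the same cluster are not independent of each other, and all changes were under the 5-fold limit that the study set for differential expression.

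**Figure D3:**
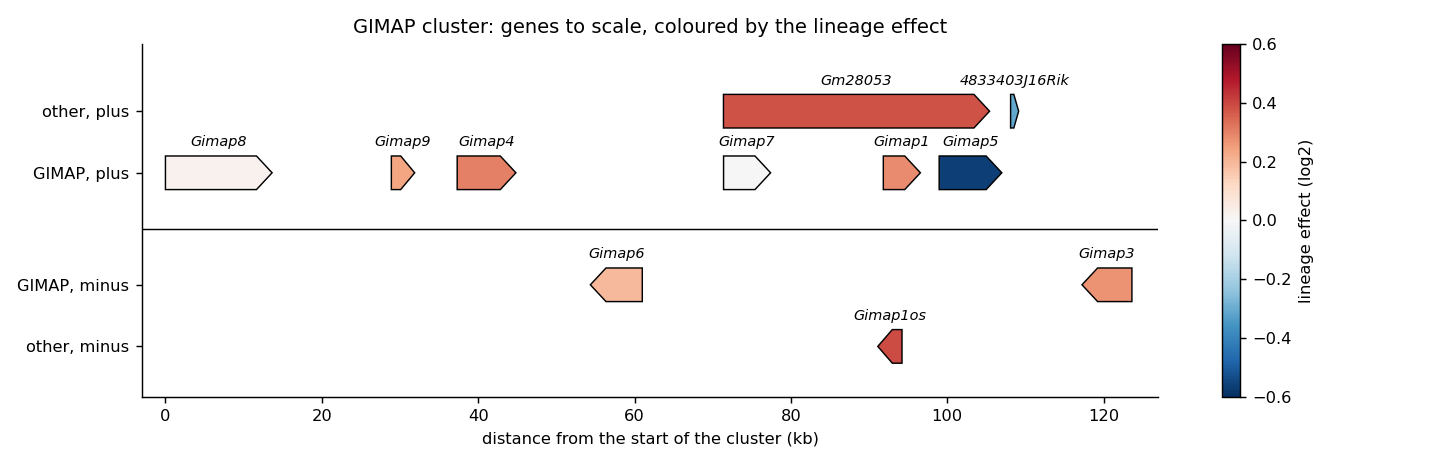
Map of the cluster, with distance from its start in kb on the horizontal axis, GIMAP genes and the 3 other genes on separate lines by strand, drawn to scale and colored by the lineage effect (log2). *Gimap5* at -0.57 stands between *Gimap1* at 0.28 and *Gimap3* at 0.27.

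The 4 comparisons between strains were read next. FlipFlop CD4 and B6 CD8 T cells, both of the cytotoxic lineage, had 0 members called by limma, against 7.92% of all genes, and 2 members (*Gimap4* at -0.27 and *Gimap6* at 0.23) at an unadjusted p under 0.05. The count stayed at 0 in all alternatives, including a linear model without eBayes. FlipFlop CD8 and B6 CD4 T cells, both of the helper lineage, differed in 1 member, *Gimap9*, which was lower in FlipFlop CD8 by limma (difference -0.35, standard error 0.09, adjusted p = 0.019), against 27.6% of all genes. That call was lost without B6 CD4 replicate 1, without FlipFlop CD8 replicate 2 or 3, and in a fit of only those 2 groups. The count was 2 without FlipFlop CD8 replicate 1. Over all alternatives the adjusted p of *Gimap9* ran from 0.0095 to 0.098. The lowest was 0.033 for *Gimap5* and 0.027 for *Gimap4*, neither called in the main fit, so which members were called depended on the fit. Between CD4 T cells of the 2 strains, which differ in lineage, 5 members were called (3 in a fit of only those 2 groups) against 28.4% of all genes, with *Gimap5* higher and *Gimap9*, *Gimap4*, *Gimap1* and *Gimap3* lower in FlipFlop. The count ran from 4 to 5 with each library left out. The highest adjusted p over all alternatives was 0.14 for *Gimap3* (0.042 by limma in the main fit) and 0.078 for *Gimap1*. Between CD8 T cells 4 were called (8 without the TMM factor) against 44.7% of all genes, with *Gimap6*, *Gimap1* and *Gimap3* higher and *Gimap5* lower in FlipFlop. With each library left out the count ran from 3 to 4, and over all alternatives the adjusted p of *Gimap6* reached 0.12. These comparisons share their groups with the ones above and are not separate evidence.

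No member was called by limma in the coreceptor effect, against 5.49% of all genes. At an unadjusted p under 0.05 there were 3, *Gimap6* at 0.16, *Gimap1* at 0.15 and *Gimap3* at 0.13, and the count of calls was 0 in all alternatives. In the strain effect 2 members were called, both lower in FlipFlop mice, against 31.2% of all genes. They were *Gimap9* (-0.24, standard error 0.07, limma adjusted p = 0.019) and *Gimap4* (-0.28, standard error 0.08, limma adjusted p = 0.022). Of the helper-lineage groups, B6 CD4 averaged 126 ± 10.3 CPM of *Gimap9* (SD, n = 3) and FlipFlop CD8 averaged 98.8 ± 7.72 CPM, and these groups did not overlap. Of the cytotoxic-lineage groups, FlipFlop CD4 averaged 90.3 ± 5.98 CPM and B6 CD8 averaged 98.9 ± 9.85 CPM, and these overlapped (difference -0.13, standard error 0.09, limma adjusted p = 0.44). Both calls depended on single libraries and on the scaling. *Gimap4* was not called without B6 CD8 replicate 3, FlipFlop CD4 replicate 2 or 3, or FlipFlop CD8 replicate 2 or 3 (-0.23 to -0.26), and *Gimap9* not without FlipFlop CD8 replicate 2 (-0.21). Without the TMM factor the effects were -0.13 for *Gimap9* and -0.17 for *Gimap4*, neither called, and the median of all tested genes was 0.10. In that fit 4 other members were called, all higher in FlipFlop mice, *Gimap7* (0.41), *Gimap6* (0.18), *Gimap5* (0.14) and *Gimap3* (0.14), so both the members called and their direction depended on the scaling. *Gimap7* had a strain effect of 0.30 that was not called without a replicate block (limma adjusted p = 0.086) and was called with one (limma adjusted p = 0.029, range over its alternatives 0.016 to 0.18).

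**Figure D4:**
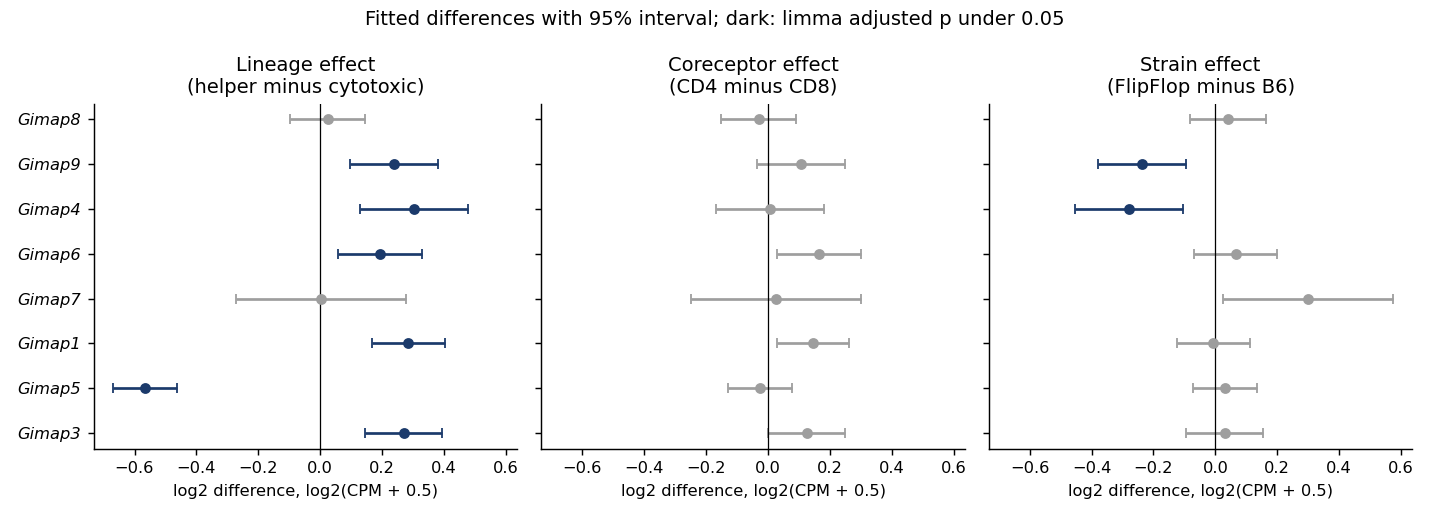
Fitted log2 differences on log2(CPM + 0.5) (horizontal axes) with 95% intervals for the 8 genes in map order, for the lineage, coreceptor and strain effects from left to right; dark points have a limma adjusted p under 0.05. *Gimap5* has the largest effect, -0.57 for lineage, and no gene is dark for the coreceptor.

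The 3 other genes within the cluster were also called in the lineage effect. *Gimap1os* averaged 36.1 ± 3.66 CPM (SD, n = 3) in B6 CD4, 27.3 ± 2.68 in B6 CD8, 27.3 ± 1.03 in FlipFlop CD4 and 35.9 ± 2.18 in FlipFlop CD8 T cells. Its lineage effect of 0.39 (standard error 0.07, limma adjusted p = 4.7e-04) had the direction of *Gimap1*, with no overlap between the lineages. Whether reads were counted by strand is not given in the sources used here, so reads of *Gimap1* and *Gimap1os* cannot be told apart where the 2 overlap. *Gm28053* was near the limit for testing, at 1.91 to 4.004 CPM, and had a lineage effect of 0.38 (standard error 0.12, limma adjusted p = 0.027) that was lost when any 1 of 7 libraries was left out. The lincRNA *4833403J16Rik*, next to *Gimap5*, was the other gene that was lower in helper-lineage T cells, at -0.31 (standard error 0.11, limma adjusted p = 0.033). The B6 CD4 libraries lay at 6.81 to 8.27 CPM and the B6 CD8 libraries at 10.1 to 10.3 CPM, while its FlipFlop groups overlapped at 9.13 to 13.6 CPM in CD4 and 8.37 to 11.7 CPM in CD8. This call was lost when any 1 of 9 libraries was left out, without eBayes and without the TMM factor.

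Neighbouring genes of similar sequence can divide reads. The deposited values of *Gimap4*, *Gimap6*, *Gimap7*, *Gimap8* and *Gimap9* were whole numbers of reads in 12 of 12 libraries, those of *Gimap1* and *Gimap5* in 1 of 12, and those of *Gimap3* in 0 of 12. In the annotated transcripts *Gimap3* and *Gimap5* share 41 windows of 100 bases, 1.65% of those of *Gimap3*, and *Gm28053* shares 99 windows with *Gimap1* and 55 with *Gimap5*. The values of *Gimap1*, *Gimap3* and *Gimap5* are uncertain to the extent of such reads. The part of shared reads in the lineage effects was not tested.

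Divided by the length of the longest coding transcript, *Gimap4* and *Gimap3* had the highest levels and *Gimap5* the lowest in each group. In B6 CD4 T cells the level per kb was 399.9 ± 23.02 CPM (SD, n = 3) for *Gimap4*, 372 ± 35.1 for *Gimap3*, 178 ± 11.4 for *Gimap6*, 168 ± 19.5 for *Gimap1*, 90.8 ± 7.47 for *Gimap9*, 69.6 ± 8.47 for *Gimap7*, 61.0 ± 6.24 for *Gimap8* and 32.9 ± 0.874 for *Gimap5*. Neighbours in that order within 1 SD of each other were *Gimap4* and *Gimap3*, and *Gimap6* and *Gimap1*. In B6 CD8 T cells *Gimap5* was at 49.8 ± 2.04 CPM per kb, below *Gimap8* at 61.0 ± 0.509. The length used matters for the middle of the order, since over the union of all exons *Gimap7* was below *Gimap8* in B6 CD4 T cells (38.0 against 52.1 CPM per kb). Summed over the 8 genes, the cluster held 2807 ± 176 CPM in B6 CD4, 2291 ± 118 in B6 CD8, 2371 ± 135 in FlipFlop CD4 and 2569 ± 199.7 CPM in FlipFlop CD8 T cells. *Gimap5* made up 2.22% to 2.40%, 4.10% to 4.43%, 4.02% to 4.28% and 2.49% to 2.68% of that sum in the libraries of the same groups.

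The members were also compared with each other over the 12 libraries, which share depth and scaling. *Gimap1* and *Gimap3* had the highest correlation of log2 values (r = 0.98), followed by *Gimap4* and *Gimap9* (r = 0.94), which lie next to each other. *Gimap5* had correlations of -0.77 to 0.13 with the other 7 genes. After the group means were taken out, its correlation with *Gimap6* was 0.88 and with *Gimap3* 0.73. Outside the cluster, the genes whose log2 values were most like the mean standardized profile of the members were *A930024E05Rik* (r = 0.90), *Ahsa2* (r = 0.87), *Cars* (r = 0.87), *Alkbh6* (r = 0.85) and *Trav10* (r = 0.82), each over 12 libraries. Of these, *Ahsa2* encodes a co-chaperone of HSP90, *Cars* a cysteinyl-tRNA synthetase and *Trav10* a variable segment of the T cell receptor alpha chain. All were at lower levels than the GIMAP genes, with group means from 1.85 to 20.9 CPM. The mean profile covers all 8 members, *Gimap5* included, and so averages members that moved in opposite directions. *Cars* was not called in the lineage effect (limma adjusted p = 0.14).

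Genes around the cluster were read for the same effects. Within 1 Mb of the cluster 23 other genes were tested, and 10 of them (43.5%) were called in the lineage effect, all 10 higher in helper-lineage T cells, against 43.6% of the 571 tested genes of chromosome 6, of which 141 were higher and 108 lower. *Gimap5* and *4833403J16Rik* were thus the genes called lower in helper-lineage T cells between 1 Mb before and 1 Mb after the cluster. From the start of the cluster to 10 Mb beyond it, the cluster included, 32 of 48 genes (66.7%) were called, 21 higher and 11 lower, and in the 10 Mb before it 23 of 61 (37.7%) were called, 17 higher and 6 lower. In the strain effect 3 of the 23 (13.0%) were called, against 32.9% on the chromosome. These were *Krba1* (0.42, limma adjusted p = 0.011), *Lrrc61* (0.23, limma adjusted p = 0.014) and *Gpnmb* (0.54, limma adjusted p = 0.042), all higher in FlipFlop mice, with starts at -252, -92.4 and 389 kb from the start of the cluster. In the coreceptor effect 2 of the 23 (8.70%) were called, against 8.58% on the chromosome and 5.49% of all tested genes.

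**Figure D5:**
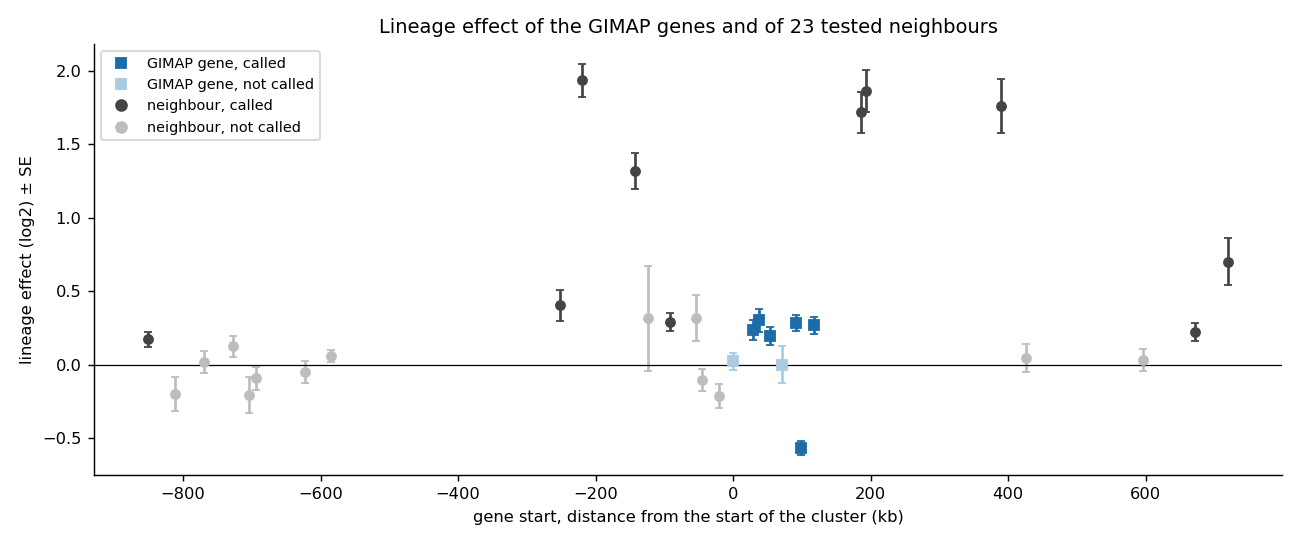
Lineage effect (log2, vertical axis, ± SE) of the 8 GIMAP genes (squares) and 23 tested neighbours (circles) against the distance of the gene's start from the start of the cluster (kb). The called neighbours are all above 0, and *Gimap5* is the called point below 0.

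Genes that work with GIMAP proteins were taken as a list of 24, all of which were tested. In the lineage effect 4 were called higher and 5 lower in helper-lineage T cells, a share near the 39.3% of all tested genes that were called, and the list's median was -0.06 against -0.03 for all genes. Among the ATG8 genes, whose products build autophagosomes, 2 of 5 were called, both higher, which is also near that share. *Gabarapl2*, a partner of GIMAP6, averaged 98.5 ± 13.1 CPM (SD, n = 3) in B6 CD4, 77.5 ± 6.97 in B6 CD8, 71.0 ± 5.35 in FlipFlop CD4 and 84.4 ± 5.53 in FlipFlop CD8 T cells, a lineage effect of 0.29 (limma adjusted p = 0.0061). *Gabarapl1* was highest in FlipFlop CD8 T cells at 13.0 ± 2.17 CPM and between 3.46 and 6.00 CPM on average elsewhere, a lineage effect of 1.11 (limma adjusted p = 1.7e-05). Of 4 genes around the kinase GSK3, which GIMAP5 is known to restrain, 1 was called in the lineage effect, against 39.3% of all tested genes. It was *Gsk3a*, lower in helper-lineage T cells at -0.23 (limma adjusted p = 6.2e-04). The rest of that list, the other GSK3 gene among them, was not called.

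Among 7 genes of the BCL2 family, which decide between survival and death of T cells, 2 were called higher and 1 lower in the lineage effect, again near the 39.3% of all tested genes. *Bcl2l1*, encoding the survival factor BCL-XL, averaged 28.8 ± 2.99 CPM (SD, n = 3) in B6 CD4, 18.8 ± 2.43 in B6 CD8, 19.3 ± 2.40 in FlipFlop CD4 and 40.4 ± 1.07 in FlipFlop CD8 T cells, a lineage effect of 0.83 (limma adjusted p = 4.6e-06). *Bcl2* went the other way at -0.32 (limma adjusted p = 0.011). Of 8 genes of naive T cell survival and homing, 3 were called lower in helper-lineage T cells, among them *Lef1* (-0.33, limma adjusted p = 9.2e-05) and *Klf2* (-0.28, limma adjusted p = 0.027), which encode transcription factors of naive T cells. Both were lowest in FlipFlop CD8 T cells, and in B6 mice their CD4 and CD8 means were closer. In B6 mice CD4 T cells averaged 469 ± 17.0 CPM of *Lef1* (SD, n = 3) and CD8 T cells 437 ± 8.64 CPM, the direction opposite to its lineage effect. In FlipFlop mice the averages were 533 ± 20.6 and 316 ± 17.0 CPM, and *Lef1* was also called in the coreceptor effect (0.43, limma adjusted p = 2.2e-04). *Klf2* averaged 409.8 ± 66.8 and 423 ± 34.7 CPM in CD4 and CD8 T cells of B6 mice, and 402 ± 41.2 and 285 ± 34.0 CPM in those of FlipFlop mice. In the strain effect, in which 31.2% of all tested genes were called, 3 of the 24 were called higher in FlipFlop mice, *Gabarapl1*, *Nfatc1* (0.24) and *Bcl2l1*, and 6 lower, among them *Bcl2* (-0.44), *Klf2* (-0.30) and *Il7r*, the receptor for the survival cytokine IL-7 (-0.39, limma adjusted p = 0.013).

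The sorted groups also differed in the summed levels of listed T cell subset genes. The 4 listed genes of regulatory T cells summed to 251 to 329 CPM in B6 CD4, 12.4 to 18.1 in B6 CD8, 20.9 to 26.2 in FlipFlop CD4 and 709 to 864 CPM in FlipFlop CD8 libraries, and all 4 were called higher for both lineage and strain. Of all tested genes, 39.3% were called for lineage and 31.2% for strain. The 6 genes of naive T cells were lowest in FlipFlop CD8 at 4071 to 4289 CPM, against 5039 to 5603 CPM in the other 9 libraries, with 3 called lower for lineage and 3 for strain. The 5 genes of memory or effector T cells summed to 397 to 491 CPM in B6 CD4, 759 to 838 in B6 CD8, 438 to 485 in FlipFlop CD4 and 818 to 1196 CPM in FlipFlop CD8 libraries, with 2 called higher for lineage and 3 for strain. The NK cell genes in the table (3 of 4, without *Ncr1*) summed to 296 to 515 CPM in cytotoxic-lineage and 11.8 to 81.4 CPM in helper-lineage libraries, with 1 called higher and 1 lower for lineage and 1 higher for strain. For endothelial cells 2 of 6 genes were in the table, at 112 to 121 CPM in B6 CD8 and 154 to 186 CPM in the other groups, and *Cdh5*, *Kdr*, *Tie1* and *Esam* were not. The 1 that was tested was called higher for lineage and for strain. The 8 T cell genes summed to 5049 to 6611 CPM in B6 CD4, 4545 to 4697 in B6 CD8, 4229 to 4810 in FlipFlop CD4 and 4191 to 4836 CPM in FlipFlop CD8 libraries, with 2 called higher and 1 lower for lineage and 4 lower for strain. For the 6 B cell genes the sums of the same groups were 52.2 to 68.4, 52.5 to 73.0, 38.5 to 59.2 and 44.6 to 51.7 CPM, with 1 called higher and 1 lower for lineage and 3 lower for strain. The myeloid genes in the table (5 of 7, without *Cd14* and *Adgre1*) were at 20.0 to 29.7, 8.52 to 21.6, 6.32 to 8.81 and 15.5 to 27.1 CPM in that order of groups, with 3 called higher for lineage and 2 lower for strain. The red blood cell genes (3 of 4, without *Alas2*) were at 20.3 to 27.4, 14.2 to 23.7, 6.17 to 13.6 and 8.85 to 13.6 CPM, with all 3 called lower for strain. The part of these subsets and cell types in the GIMAP differences was not tested. Each library had about 26600000 to 33100000 reads on the genes of the table, and each value of a GIMAP gene rested on 1763 to 25646 reads.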

How the data were processed

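The authors deposited 1 table of normalized signal, CPM scaled by TMM, with 1 column per library and no unused column. Per the methods they made the libraries with a low-input RNA kit and aligned paired-end reads to mm10 with STAR, whereas the labels list TopHat and Trimmomatic. The counting program, its annotation and its use of strand are not given in the sources used here. All 12809 gene identifiers matched GENCODE M21 (GRCm38). Of the values below 100 CPM, 84.8% to 86.4% per library came out as whole reads (tolerance 0.002 reads), short of the 95% required, so read counts were not tested.

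Genes that reached 1 CPM in 3 or more libraries were fitted on log2(CPM + 0.5) with limma 3.58.1 (R 4.3.3, lmFit and eBayes with trend, 8 residual degrees of freedom). This scale understates the change of low genes. The fit was checked on simulated data. Alternatives were pseudocounts of 0.1 and 1, no filter or a mean of 5 CPM as the filter, rescaling by median of ratios, columns without the TMM factor, a replicate block, only the 2 groups compared, a linear model without eBayes, the study's limits, and each library left out. Genes were named by rule: the 8 members, other genes inside the cluster, up to 10 called partner genes, the 5 genes most like the members' mean profile, neighbours within 1 Mb called for strain, and *Cd4*, *Cd8a* and *Zbtb7b*. One partner gene that the rule names is not reported here. The members and lists were chosen with earlier results of these data known. RefSeq promoters matched 8 of 8 members.

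Replicate numbers were checked by correlating deviations from the group means. The correlations were 0.44, 0.27 and 0.51 in FlipFlop, which pairs those libraries although no source says what they share. In B6 they were 0.18, 0.089 and 0.35. There CD4 replicate 2 correlated more with CD8 replicate 1 (0.16) than with CD8 replicate 2, so the pairing is less clear in B6.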

Additional observations from a re-analysis of the deposited data

Results flagged for a closer look

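The lineage effect tests whether CD4 minus CD8 differs between the strains, and it is that difference divided by 2. It passed the limma threshold for 9 of the 11 genes of the cluster and for 39.3% of all tested genes. The calls of *Gimap6*, *Gm28053* and *4833403J16Rik* were each lost when any 1 of 5, 7 and 9 libraries was left out. Among the GIMAP genes the effect was -0.57 for *Gimap5*, 0.30 for *Gimap4*, 0.28 for *Gimap1*, 0.27 for *Gimap3*, 0.24 for *Gimap9* and 0.19 for *Gimap6*. For the other genes inside the cluster it was 0.39 for *Gimap1os*, 0.38 for *Gm28053* and -0.31 for *4833403J16Rik*. The groups hold 3 libraries each, which is too few to look for single outlying libraries.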

How the results depend on the processing

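The count of called members in the lineage effect was 6 and ran from 5 to 6 with each library left out, while *Gimap5*, *Gimap4*, *Gimap1*, *Gimap3* and *Gimap9* kept an adjusted p under 0.05 in every other fit. With the limits of an unadjusted p under 0.0001 and more than 5-fold, the count was 0 in the lineage and strain effects and in all 6 pairs of groups. Without the TMM factor it was 5 between FlipFlop CD4 and CD8, 8 between FlipFlop CD8 and B6 CD8 and 4 in the strain effect, and the median of all tested genes was then 0.20 in place of -0.02 for FlipFlop CD8 minus B6 CD8. With only the 2 groups compared, a fit of fewer samples, there were 0 for FlipFlop CD8 minus B6 CD4 and 3 for FlipFlop CD4 minus B6 CD4. With a replicate block it was 2 between FlipFlop CD4 and CD8, and *Gimap7* (strain effect 0.30, limma adjusted p = 0.029, range over its alternatives 0.016 to 0.18) and *4833403J16Rik* (strain effect 0.29, 0.020, range 0.016 to 0.14) were then called. The pairing rests mainly on the FlipFlop libraries and is less clear in B6. With each library left out, the count ran from 1 to 2 between FlipFlop CD4 and CD8 (2 without B6 CD4 or FlipFlop CD4 replicate 1), from 0 to 2 between FlipFlop CD8 and B6 CD4, and from 0 to 2 in the strain effect (1 without B6 CD8 replicate 3, FlipFlop CD4 replicate 2 or 3 or FlipFlop CD8 replicate 3, and 0 without FlipFlop CD8 replicate 2). The count also ran from 4 to 6 between B6 CD4 and CD8 with each library left out. It ran from 4 to 5 for FlipFlop CD4 minus B6 CD4 and from 3 to 4 for FlipFlop CD8 minus B6 CD8. The cause was not tested.

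Effects that changed sign were all near 0 and not called. Under median-of-ratios rescaling the coreceptor effect was -0.0050 for *Gimap4* and -0.0089 for *Gimap1os*, and the strain effect was 0.0077 for *Gimap1*. Without the TMM factor the coreceptor effect was -0.047 for *Gimap4*, -0.028 for *Gimap7* and -0.050 for *Gimap1os*, and the strain effect was 0.11 for *Gimap1*. With each library left out, the lineage effect ran from -0.013 to 0.061 for *Gimap8* and from -0.094 to 0.083 for *Gimap7*. The coreceptor effect ran from -0.066 to 0.0073 for *Gimap8*, -0.035 to 0.060 for *Gimap4*, -0.054 to 0.12 for *Gimap7*, -0.046 to 0.0013 for *Gimap5*, -0.038 to 0.046 for *Gimap1os* and -0.064 to 0.087 for *Gm28053*. The strain effect ran from -0.037 to 0.039 for *Gimap1* and from -0.042 to 0.025 for *Gimap1os*.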
